A study of Mus musculus with 6 samples.

Results

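The study sequenced single-cell mRNA with 5′ chemistry. The cells were sorted as TCRβ+ from tumors of B16-F10, a transplantable mouse melanoma line, grown under the skin of Foxp3-EGFP-DTR mice. In all of these mice, controls included, the Foxp3 locus drives EGFP and a receptor for diphtheria toxin (DTx), so that the toxin removes Foxp3-expressing Treg cells, and the labels list 3 PBS-treated and 3 DTx-treated samples. The deposited table holds UMI counts (counts of distinct captured mRNA molecules) of 14597 genes in 12818 cells from 6 libraries. Because no label ties a library to a sample, the libraries are called library 1 to library 6, treatment was not compared, and every interval given here is a 95% interval that covers counting error only.

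The cells described here are CD8+ T cells with detected Gzmb mRNA and no detected mRNA of Pdcd1 or of the proliferation markers used. They had at least 1 UMI of Cd8a or Cd8b1 and none of Cd4 or Foxp3 (Cd8-gated cells), at least 1 Gzmb UMI, and no UMI of Pdcd1, of the NK cell genes Klrb1c, Tyrobp and Cx3cr1, or of the proliferation genes Mki67 and Top2a. The cells were thus chosen by the measured UMIs of these genes, which are given as a description. This rule selected 936 of 12818 cells and of 4497 Cd8-gated cells, called members below. Of the 1839 Cd8-gated cells with a Gzmb UMI, 578 carried a Pdcd1 UMI, 141 carried an NK gene UMI and 437 carried a Mki67 or Top2a UMI, with overlaps among these. Members were compared with the other 3561 Cd8-gated cells of the same library. They were also compared with 358 cells that met the same rule except for at least 1 Pdcd1 UMI (Pdcd1+ cytotoxic cells) and with 2264 cells that met it except for no Gzmb UMI (Gzmb- cells).

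Cytotoxic CD8+ T cells kill target cells by releasing granules in which perforin, the product of Prf1, forms pores and granzymes enter the target as proteases. Naive CD8+ T cells lack this machinery, express the lymph node homing receptor encoded by Ccr7 and depend on the transcription factor encoded by Tcf7, and effector differentiation reverses this pattern. Under prolonged antigen exposure in tumors, effector cells come to express PD-1, the receptor encoded by Pdcd1, together with other inhibitory receptors such as those encoded by Lag3, Havcr2, Tigit and Ctla4.

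The promoters of Gzmb, which defines the members, and of Gzma, the granzyme gene called higher in members in 3 of the 4 comparisons, are shown because the results turn on these 2 genes. Each sequence is the 250 bases 5′ of the RefSeq start (GRCm38.p6), read in the direction of the gene, which is the minus strand for both. Capitals mark TGTGGT, the core recognised by RUNX factors, and TCACAC, a T-box half-site, on either strand, without overlap between them.
Gzmb, chr14:56262335-56262584: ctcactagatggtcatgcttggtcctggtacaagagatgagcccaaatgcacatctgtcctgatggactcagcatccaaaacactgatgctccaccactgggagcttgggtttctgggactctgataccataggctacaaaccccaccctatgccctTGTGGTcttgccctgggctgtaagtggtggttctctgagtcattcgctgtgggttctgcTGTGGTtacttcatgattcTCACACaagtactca
Gzma, chr13:113100982-113101231: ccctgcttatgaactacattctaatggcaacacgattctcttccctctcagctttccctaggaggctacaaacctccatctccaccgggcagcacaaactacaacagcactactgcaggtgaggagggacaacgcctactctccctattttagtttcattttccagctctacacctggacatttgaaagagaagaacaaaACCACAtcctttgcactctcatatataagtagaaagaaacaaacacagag
The Gzmb window held 2 matches to TGTGGT and 1 to TCACAC, and the Gzma window held 1 match to TGTGGT and 0 to TCACAC. Among 32851 promoter windows of the same length, 14.0% held TGTGGT, 12.3% held TCACAC and 2.05% held both. In GENCODE M21 (GRCm38) the gene Gzmb lies on chromosome 14 from 56258838 to 56262260 and Gzma on chromosome 13 from 113093825 to 113100981, and neither window overlaps an annotated exon.

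The median member held 2095.5 UMIs from 902 genes, against 1608 UMIs in the other Cd8-gated cells, 2633.5 in Pdcd1+ cytotoxic cells and 1309 in Gzmb- cells. Within libraries the medians of members were 1712, 2067, 1220.0, 2688, 2373 and 1529 UMIs. Ribosomal protein genes took a median of 29.5% of UMIs in members, 28.9% in Pdcd1+ cytotoxic cells and 40.2% in Gzmb- cells, with libraries pooled. In libraries 1 to 6 this median was 29.8%, 39.1%, 29.3%, 28.0%, 29.6% and 30.8% in members. In Gzmb- cells it was 39.8%, 45.7%, 40.1%, 30.4%, 32.5% and 32.9%, so the classes lay closer in libraries 4 to 6, which held most members. Mitochondrial transcripts took a median of 0.824% in members. A barcode was shared between libraries in 76 cases, which involved 14 members.

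The share of members among Cd8-gated cells was 20.8% over all libraries (interval 19.6 to 22%) and differed widely between libraries. It was 9.16% of 622 cells in library 1, 0.790% of 886 in library 2, 10.2% of 402 in library 3, 29.4% of 827 in library 4, 34.4% of 869 in library 5 and 32.4% of 891 in library 6. Libraries 4, 5 and 6 thus supplied 26.0%, 31.9% and 30.9% of the members, whereas library 2 supplied 7 cells and does not enter the count of directions below. The share of Cd8-gated cells with any Gzmb UMI was likewise lower in libraries 1, 2 and 3 than in libraries 4, 5 and 6, at 15.8%, 0.903%, 21.6%, 60.6%, 71.3% and 58.9%. Members made up 47.1 to 58.2% of the Gzmb+ Cd8-gated cells in libraries 1, 3, 4, 5 and 6. After every cell was thinned to 1000 UMIs before gating, the share of members was 24% over all libraries and 8.18%, 0.693%, 15.2%, 30.3%, 37.4% and 36.4% in libraries 1 to 6, with 762 shallower Cd8-gated cells left out.

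Free mRNA in the droplets can give a Gzmb UMI to a cell that does not express the gene, so its frequency was also taken in T cells with both Ccr7 and Lef1 UMIs (naive-type cells), a class chosen after the data were seen. Of these, 6 of 183 in library 1, 4 of 663 in library 2, 4 of 93 in library 3, 9 of 21 in library 4, 15 of 23 in library 5 and 8 of 14 in library 6 carried a Gzmb UMI. In libraries 1 and 3 the resulting 3.28% (interval 1.21 to 7.0%) and 4.30% (1.18 to 10.6%) lay below the Gzmb+ share of Cd8-gated cells, at median depths of 1142 and 629 UMIs against 1386.5 and 884.5. In library 2 the shares of 0.603% and 0.903% had overlapping intervals. In libraries 4, 5 and 6 the shares of 42.9% (21.8 to 66.0%), 65.2% (42.7 to 83.6%) and 57.1% (28.9 to 82.3%) had intervals that included the Cd8-gated value, at median depths of 3749, 3911 and 2927.5 UMIs against 2774, 2390.0 and 1552. In libraries 2, 4, 5 and 6 the Gzmb+ share of Cd8-gated cells was thus not shown to lie above that of naive-type cells. The naive-type class was chosen by Ccr7 and Lef1 only and could itself hold Cd8-gated cells and members. This comparison therefore cannot tell a Gzmb UMI of members from a background. The naive-type cells of libraries 4 to 6 also carried Lag3, Havcr2, Tigit or Ctla4 UMIs in 81.0%, 87.0% and 78.6% of cells, so that they are no clean reference for cells without effector mRNA there. The part of free mRNA or of other cells in these shares was not tested.

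**Figure D1:**
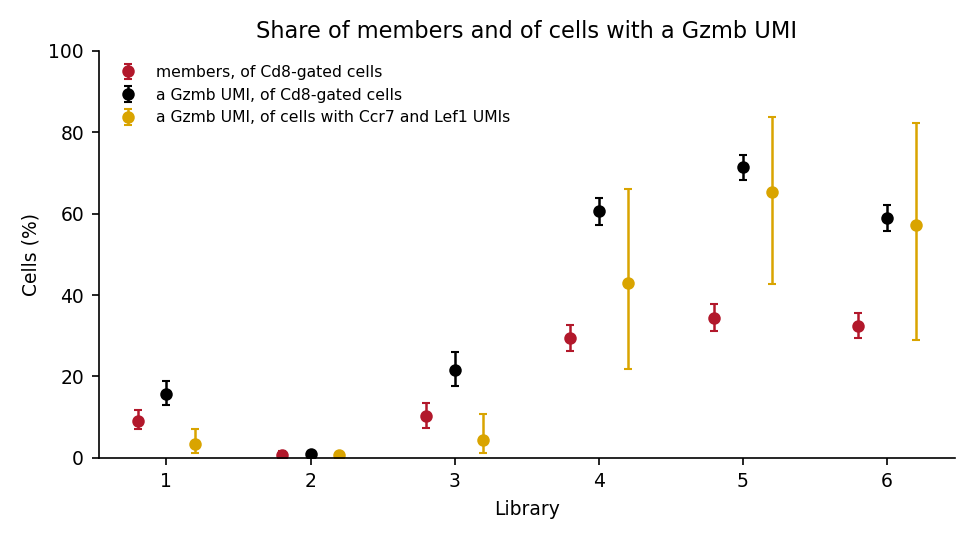
Share of members among Cd8-gated cells (red), of Cd8-gated cells with a Gzmb UMI (black) and of cells with Ccr7 and Lef1 UMIs that carried a Gzmb UMI (yellow), in percent, by library. Bars are exact binomial 95% intervals. Members ranged from 0.790% in library 2 to 34.4% in library 5, and the yellow intervals reach the black points in libraries 4, 5 and 6.

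The label of the cells was checked with their markers. Members carried Cd8b1 UMIs in 88.4% and Cd8a UMIs in 57.2% of cells by the rule, and Cd3e, part of the T cell receptor complex and not used by the rule, in 91.1%. Perforin mRNA was sparse: 80 of 936 members, 8.55% (interval 6.84 to 10.5%), carried a Prf1 UMI. Levels of Prf1 in members, as UMIs of the gene per 1000000 UMIs (CPM), were 17.7, 66.5, 35.9, 37.7, 43.8 and 49.4 in libraries 1 to 6, from 2, 1, 2, 27, 34 and 26 UMIs. The same share was 10.6% in Pdcd1+ cytotoxic cells, 2.78% in Gzmb- cells and 1.71% in naive-type cells. Thinned to 1000 UMIs, the shares of members and of these 3 classes were 4.42%, 4.06%, 2.01% and 1.13%. All these shares pool libraries of unlike make-up. Library 2 held 7 members but 861 of 2264 Gzmb- cells and 663 of 997 naive-type cells. The UMI ratio of Prf1, its UMIs over those its level in Gzmb- cells of the same library would give, was 1.86 (interval 1.35 to 2.60), higher in 4 of 5 libraries, so the direction was not shared by all. Against Pdcd1+ cytotoxic cells it was 1.07 (0.73 to 1.59).

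Gzmb itself, which encodes granzyme B and was used by the rule, was unevenly spread. A member carried 1 to 46 Gzmb UMIs with a median of 2, and the 82 members with 10 or more held 36.9% of the 3816 Gzmb UMIs. The level of Gzmb in members was 1124, 532, 1220.5, 1576, 2150.4 and 1549.5 CPM in libraries 1 to 6. A single Gzmb UMI was the only one in 312 members, 33.3% of them. These cells lie just inside the threshold and the Gzmb- cells just outside it. Just outside the Pdcd1 threshold, the 211 cells with 1 Pdcd1 UMI had 2908 CPM of Gzma.

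Within libraries 4, 5 and 6, where every class of Gzmb UMIs held at least 20 cells, Gzma stood at 2504, 2583 and 2538 CPM in members with 1 Gzmb UMI and at 5945, 4220 and 4194 in members with 5 or more. In Gzmb- cells of these libraries it stood at 1351, 1103 and 956. Ccl5 had no such order, with 8940.3, 9535 and 13001 CPM in Gzmb- cells, 14482, 19642 and 12672 at 1 Gzmb UMI and 16587, 10592 and 12312 at 5 or more. In library 6 it was thus no higher in members with 1 Gzmb UMI than in Gzmb- cells. Deeper cells can yield more Gzmb UMIs, and the median depth was 1674.5 UMIs in the lowest class and 2746 in the highest.

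**Figure D2:**
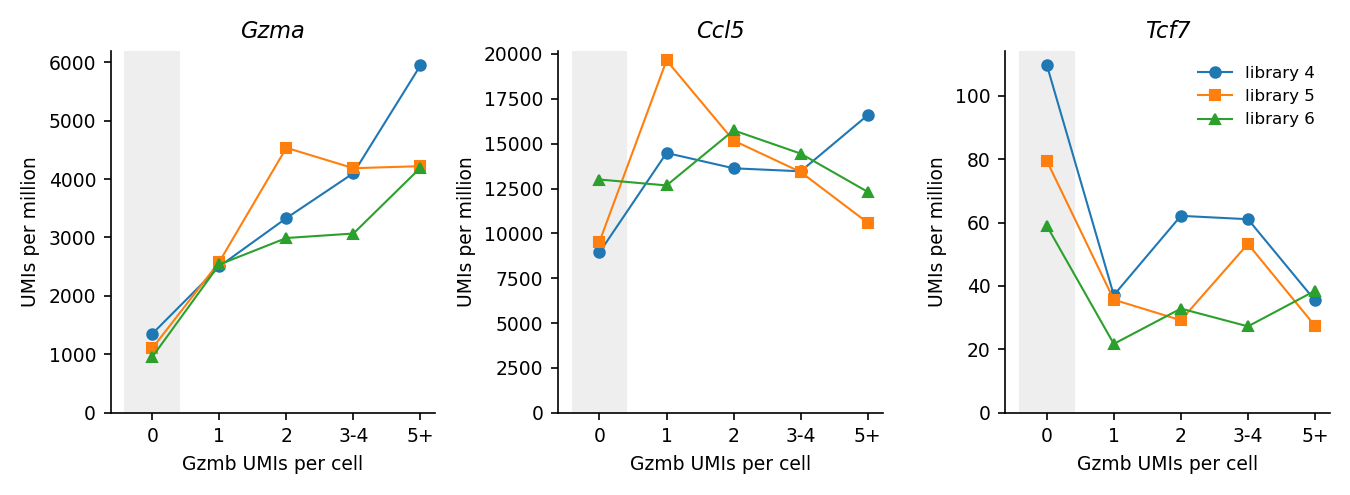
Levels of Gzma, Ccl5 and Tcf7 in CPM by number of Gzmb UMIs per cell in libraries 4, 5 and 6; the shaded class with 0 Gzmb UMIs holds Gzmb- cells and the others hold members. Gzma at 5 or more Gzmb UMIs, 4194 to 5945 CPM, lay above both the shaded class and the class with 1 Gzmb UMI in each library.

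For each comparison, the UMI ratio of a gene set its UMIs in members against those that its share of UMIs in the comparison cells of the same library would give. A gene was called when this UMI ratio was at least 1.5, or at most its inverse, with the same direction in every library counted. Libraries counted had at least 20 cells of both kinds, and those without a UMI of the gene in either kind were skipped. Against the other Cd8-gated cells, 30 of 8477 genes with at least 50 UMIs were called higher (0.354%) and 322 lower (3.8%), with a median ratio of 0.973. The interval lay above 1 for 26 of the 30 and below 1 for 265 of the 322. Only 2 of the higher genes, Gzma and Ccl5, had 500 or more UMIs.

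Gzma, which encodes the tryptase granzyme A, had 372, 431, 4401, 3958 and 3091 CPM in members of libraries 1, 3, 4, 5 and 6, and 68.7, 150.3, 2788, 2579.6 and 1669 in the other Cd8-gated cells. Members were higher in each of the 5 libraries, and the level in libraries 1 and 3 was far below that of the others in both kinds of cell. Its ratio was 1.62 (interval 1.57 to 1.67) from 7918 UMIs in members. Ccl5, which encodes a chemokine that attracts T cells and monocytes, had 20104, 21160.5, 15077, 13446 and 13628 CPM in members and 12524, 12408, 9476, 8041 and 8912 in the others. Here libraries 1 and 3 were the highest, again with members above the others in all 5, and the ratio was 1.61 (1.59 to 1.64). With comparison cells matched in quartile of UMIs per cell as well as in library (depth-matched), Ccl5 fell to 1.44, below the fold used, and Gzma kept 1.62.

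The remaining genes among the 10 highest with at least 100 UMIs were sparse, with 32 to 89 UMIs in members. They were Igkc (ratio 1.94), Dnase2a (1.76), Ap1g2 (1.71), Tmem140 (1.70), Wipf2 (1.68), Ctdsp2 (1.63), Vps35l (1.62) and Trim34a (1.62). Igkc encodes the immunoglobulin kappa constant region and is a B cell gene. It had 8, 14, 20, 20 and 27 UMIs in members of libraries 1, 3, 4, 5 and 6, or 70.8, 251, 28.0, 25.8 and 51.3 CPM, against 25.4, 69.8, 27.9, 12.3 and 17.7 in the others. Its level in library 4 was close in both kinds of cell. The B cell receptor gene Cd79a was nearly absent, with 1 UMI in members, and Ighd was at 0. Among the fixed lists, Oas1a, an interferon-stimulated gene, was also called higher (2.11). Called lower were Crtam (0.61), an activation receptor gene, Cd200 (0.31), which encodes an inhibitory ligand, the type 2 cytokine gene Il13 (0.078), Ccl1 (0.28), Ccr7 (0.54), Tcf7 (0.66), Dapl1 (0.48) and Actn1 (0.54). The ratio of Tcf7 was 0.35 and 0.21 in libraries 1 and 3 but 0.69, 0.96 and 0.92 in libraries 4, 5 and 6. That of Ccr7 was 0.22, 0.18, 0.68, 0.86 and 0.27 in the same order.

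Among the 10 lowest genes with at least 100 UMIs were Shcbp1 (ratio 0.070), Ncapg (0.075), Aspm (0.076), Kif15 (0.087), Kif11 (0.089), Hist1h3c (0.10), Hist1h2ab (0.11), Cenpe (0.11) and Esco2 (0.12). Most of these encode parts of the mitotic apparatus or histones made in S phase, and the rule had removed Mki67+ and Top2a+ cells from members but not from the others. Of 28 cell cycle genes outside the rule, 13 were called lower and 0 higher, with a median ratio of 0.292.

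When comparison cells with a Mki67 or Top2a UMI were also left out, an alternative chosen after the data were seen, 25 of 7782 genes were called higher (0.321%) and 130 lower (1.67%). Of 23 cell cycle genes tested, 0 were then lower and 1 higher, with a median ratio of 1.09. Gzma remained called, at a ratio of 1.80 (interval 1.74 to 1.86), and Ccl5 fell to 1.28 (1.26 to 1.30) and was not called. The 1 cell cycle gene called was Ube2c (1.51). The genes called lower among the naive and memory list were 6 of 24, with a list median of 0.867 against 0.993 for all genes. These 6 were Tcf7 (0.55), Id3 (0.48), Dapl1 (0.37), Nsg2 (0.52), Il6ra (0.65) and Actn1 (0.47). Ccl1, a chemokine gene, was lower at 0.27 (0.17 to 0.41), and the lymph node homing receptor gene Ccr7 at 0.50 (0.41 to 0.61). Itgae, the alpha chain of the CD103 integrin of tissue-resident T cells, was lower at 0.35 (0.16 to 0.65). It was the 1 gene called of 13 tissue residency genes tested, of which 5 lay above 1, with a list median of 0.933.

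Against Gzmb- cells, 120 of 6977 genes were called higher in members (1.72%) and 96 lower (1.38%), and the median ratio was 1.04. Among granule and killing genes 4 of 22 tested were higher and 0 lower, with a list median of 1.23. These were Gzma, the granzyme gene Gzmk (1.53, interval 1.35 to 1.73), and Serpinb9 (1.88, 1.59 to 2.22) and Serpinb6b (1.52, 1.30 to 1.78), which encode serpins; the product of Serpinb9 inhibits granzyme B and protects the killer cell. Depth-matched, Serpinb6b fell to 1.36 and was not called. Gzma in Gzmb- cells stood at 35.4, 77.3, 1351, 1103 and 956 CPM in libraries 1, 3, 4, 5 and 6. Each of these was below the members of the same library, and the ratio of 3.39 (3.21 to 3.59) was the highest of the named genes.

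Klrg1, which encodes an inhibitory lectin-like receptor of effector T cells, had 97.3, 108, 53.1, 54.1 and 60.8 CPM in members of libraries 1, 3, 4, 5 and 6 and 7.39, 7.36, 27.0, 19.9 and 14.1 in Gzmb- cells. Members were higher in every library, with a ratio of 2.95 (2.02 to 4.50), although the counts in libraries 1 and 3 were 11 and 6 UMIs. Tnfrsf9, which encodes the costimulatory receptor 4-1BB, had 106, 179, 72.7, 188 and 127 CPM in members and 23.6, 44.2, 30.6, 72.9 and 78.7 in Gzmb- cells. Members were higher in every library, although the highest value of Gzmb- cells, 78.7, lay above the lowest of members, 72.7. The ratio was 2.31 (1.83 to 2.93). Depth-matched cells gave 1.86.

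Further genes called higher than in Gzmb- cells came from several groups. Among transcription factors the interferon regulatory factor genes Irf8 (2.55, interval 1.66 to 4.11) and Irf4 (1.54, 1.16 to 2.05) were 2 of 20 called higher, with 0 lower, and depth-matched Irf4 fell to 1.32 and was not called. Of 12 inhibitory receptor genes 1 was called higher, Lilrb4a (1.53, depth-matched 1.49), while Havcr2 (2.0) and Lag3 (1.67) were lower in 1 of 5 libraries. Of 23 cell cycle genes 2 were called higher, Mcm3 (1.54, depth-matched 1.18) and Mcm5 (1.51, depth-matched 1.25), which encode parts of the replicative helicase. In the ligand list Ccl3 was higher (1.53, 1.30 to 1.80) and Ccl1 lower (0.14, 0.087 to 0.21), the latter from UMIs in 3 libraries only. The type 1 cytokine gene Ifng had a ratio of 1.29 (1.18 to 1.40), below the fold used. Glycolysis genes lay above 1 in 12 of 13 cases with a median of 1.32, and Pfkp, a phosphofructokinase gene, was called (1.67, 1.38 to 2.01). All 19 actin, S100 and galectin genes lay above 1, with a median of 1.14, and Anxa2 was called (1.68, 1.53 to 1.86). The stress-activated kinase gene Stk39 (2.14), Cmip (2.21) and Nfatc2ip (2.41) completed the 6 highest genes with at least 100 UMIs.

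Naive and memory genes lay on the other side. Of 24 tested, 7 were lower and 0 higher, with a list median of 0.728. Tcf7 had 88.5, 35.9, 44.7, 34.8 and 28.5 CPM in members of libraries 1, 3, 4, 5 and 6 and 307, 254, 109.8, 79.5 and 59.0 in Gzmb- cells. Members were lower in each library, while Gzmb- cells themselves ran from 59.0 to 307, and the ratio was 0.39 (0.31 to 0.49). The other 6 were Klf2 (0.55, 0.50 to 0.59), a transcription factor gene of quiescent recirculating T cells, Id3 (0.30), Dapl1 (0.26), Nsg2 (0.33), Il6ra (0.51) and Tdrp (0.35). Ccr7 was also lower (0.42, 0.34 to 0.51). Itgae was lower at 0.27 (0.12 to 0.51), from 10 UMIs in members. The other tissue residency genes tested were not called, and 5 of the 13 lay above 1, with a list median of 0.919 and a highest ratio of 2.40. Jun, an immediate early gene, was lower at 0.63 (0.59 to 0.67; depth-matched 0.68, past the fold no longer), and Dusp5 was higher at 1.52 (1.35 to 1.71).

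**Figure D3:**
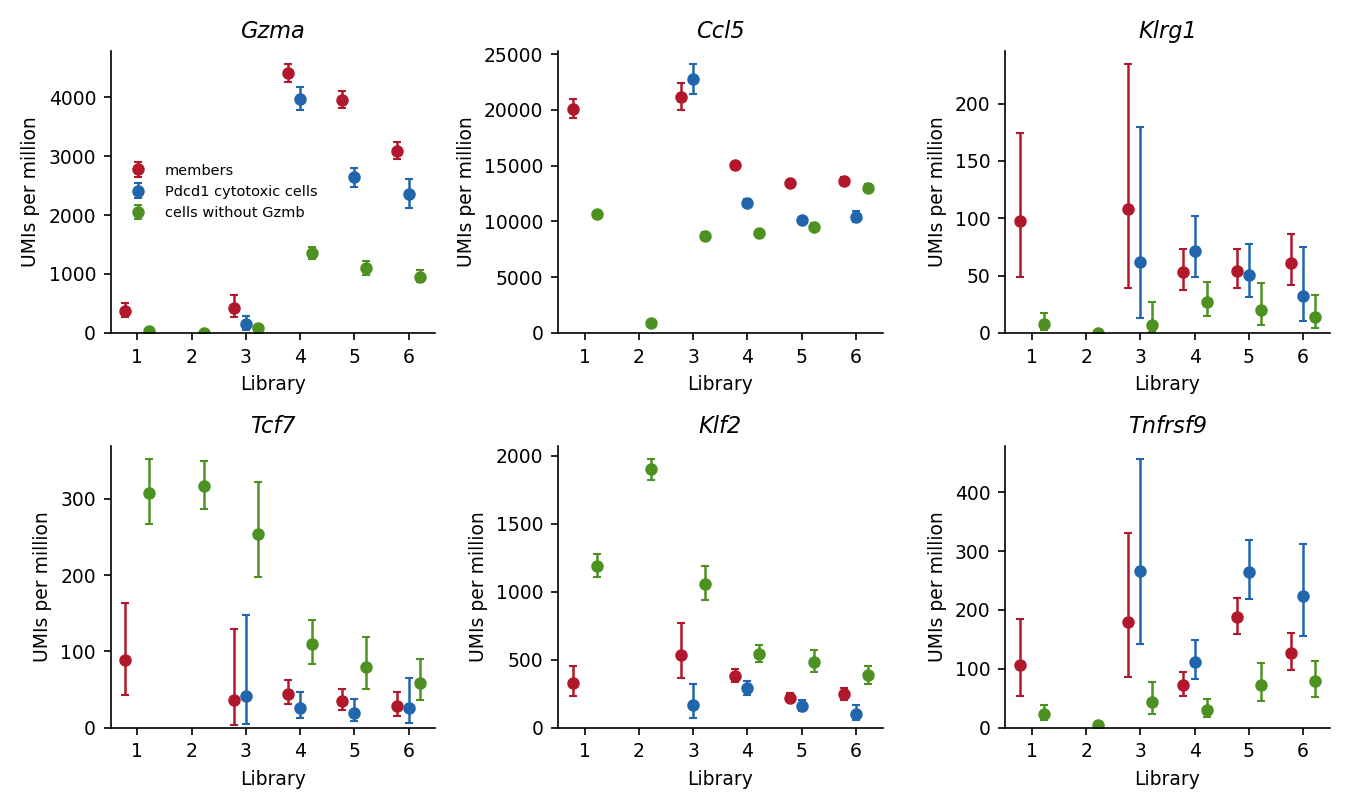
Levels of 6 genes in CPM by library in members (red), Pdcd1+ cytotoxic cells (blue) and Gzmb- cells (green), with exact Poisson 95% intervals; classes under 20 cells in a library are left out. Gzma, Klrg1 and Tnfrsf9 lay higher and Tcf7 and Klf2 lower in members than in Gzmb- cells of each of the 5 libraries.

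Pdcd1+ cytotoxic cells differ from members by the presence of a Pdcd1 UMI, and detection of that UMI depended on depth. Among the 1294 cells of both kinds, a Pdcd1 UMI was found in 18.2% of those with 505 to 1553 UMIs, in 23.8% and 25.2% of the middle quartiles and in 43.5% of those with 3163 to 9884 UMIs. As deposited, 27.7% of these cells carried it, and thinned to 1000 UMIs before gating 14.3% did. The share by library was 24%, 12.5%, 32.8%, 33.1%, 30.5% and 19.0% in libraries 1 to 6, the second from 8 cells. A member is therefore a cell without a Pdcd1 UMI at its depth and not a cell shown to lack the receptor.

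Against Pdcd1+ cytotoxic cells, 69 of 5649 genes were called higher in members (1.22%) and 139 lower (2.46%), with a median ratio of 0.965 and directions from libraries 3 to 6. The interval excluded 1 for 38 of the 69 and 108 of the 139. The lowest gene with at least 100 UMIs was Rgs16, which encodes a regulator of G protein signalling. It had 305, 40.5, 37.3 and 53.2 CPM in members of libraries 3, 4, 5 and 6 and 554, 55.0, 130.1 and 230.2 in Pdcd1+ cytotoxic cells. Members were lower in each, and in both kinds of cell library 3 was the highest. The ratio was 0.34 (0.26 to 0.43), and 0.41 depth-matched. The rest of the 6 lowest genes with at least 100 UMIs were Socs2 (0.49), a gene for a suppressor of cytokine signalling, Csf1 (0.52), a macrophage growth factor gene, Glg1 (0.54), Pdcd1lg2 (0.54), which encodes the PD-1 ligand PD-L2, and Naxe (0.54).

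Some receptor genes were called lower in members of this pair, while the medians of the costimulatory (0.953) and cytokine receptor (0.948) lists lay close to the 0.965 of all genes. Of 12 costimulatory receptor genes, 11 were tested and 2 called lower, Tnfrsf9 (0.63, interval 0.52 to 0.75) and Tnfrsf4 (0.55, 0.45 to 0.68). The cytokine receptor genes Il2ra (0.62, 0.49 to 0.79) and Il21r (0.67, 0.53 to 0.84) and the transcription factor genes Nr4a2 (0.64, 0.53 to 0.77) and Ikzf2 (0.55, 0.41 to 0.74) were also called lower, as were the chemokine receptor gene Ccr8 (0.59) and Actn1 (0.44). Pdcd1+ cytotoxic cells were the deeper class, and the depth-matched ratios of Tnfrsf9 (0.72), Tnfrsf4 (0.68), Il2ra (0.68), Il21r (0.67) and Nr4a2 (0.72) missed the fold, whereas that of Ikzf2 (0.55) did not. For Tnfrsf9 the levels in libraries 3 to 6 were 179, 72.7, 188 and 127 CPM in members and 267, 112, 265 and 224 in Pdcd1+ cytotoxic cells.

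Of the inhibitory receptor list, 10 genes were tested and 0 were called in either direction, while 9 of the 10 lay below 1 with a list median of 0.793 against 0.965 for all genes. Ctla4 had a ratio of 0.73 (0.63 to 0.85), Lag3 0.75 (0.55 to 1.04), Havcr2 0.78 (0.61 to 1.0) and Tigit 0.83 (0.72 to 0.96). Counted per cell, 531 of 936 members, 56.7% (53.5 to 59.9%), carried a UMI of at least 1 of these 4 genes, and 21.8% carried 2 or more of them. By library this share was 38.6%, 42.9%, 39.0%, 70.4%, 62.5% and 45.7%. In Pdcd1+ cytotoxic cells it was 77.7% (73.0 to 81.9%), in Gzmb- cells 19.9% and in naive-type cells 13%. Thinned to 1000 UMIs, the pooled shares were 38.3% (35 to 41.6%) in members, 47.0% (41.6 to 52.4%) in Pdcd1+ cytotoxic cells, 15.8% in Gzmb- cells and 12% in naive-type cells. In libraries 1, 3, 4, 5 and 6 the thinned shares of members were 24%, 43.5%, 42.1%, 41.2% and 34.3%. Those of Gzmb- cells were 10.5%, 20.7%, 34.8%, 32.7% and 28.9%, with intervals that overlapped those of members in each. The thinned share of members lay below that of Pdcd1+ cytotoxic cells in each of libraries 1, 3, 4, 5 and 6, with overlapping intervals in all 5.

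**Figure D4:**
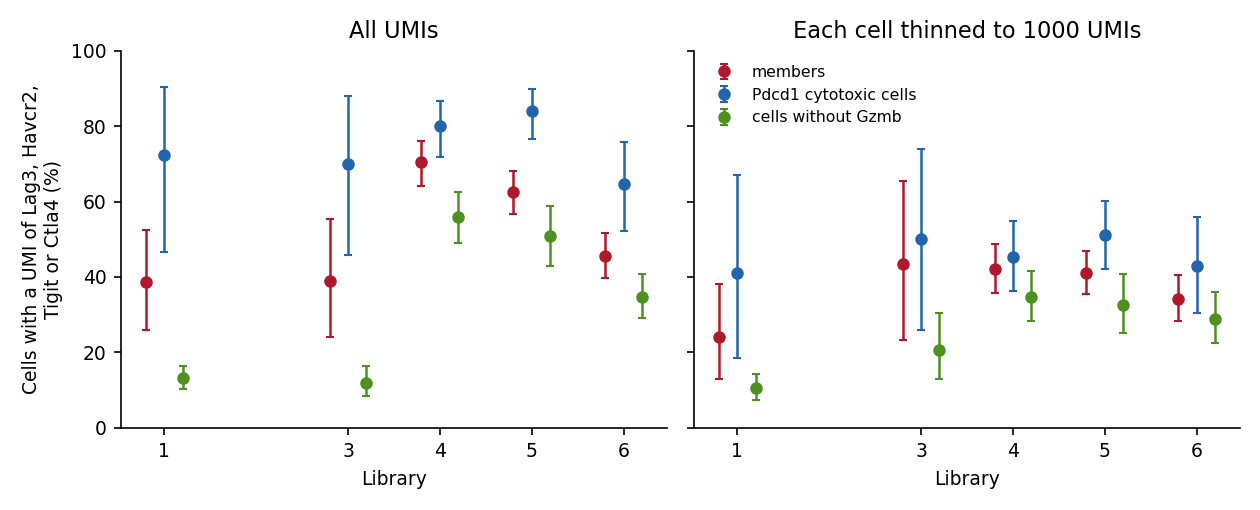
Percent of cells with a UMI of Lag3, Havcr2, Tigit or Ctla4 by library in members (red), Pdcd1+ cytotoxic cells (blue) and Gzmb- cells (green), from all UMIs (left) and after thinning each cell to 1000 UMIs (right), with exact binomial 95% intervals. Over all libraries members stood at 56.7% from all UMIs and 38.3% after thinning, between the other classes.

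Genes higher in members than in Pdcd1+ cytotoxic cells included Klf2, which was lower in members than in Gzmb- cells. Klf2 had 538, 383, 220.2 and 245 CPM in members of libraries 3, 4, 5 and 6 and 164, 289, 164 and 102 in Pdcd1+ cytotoxic cells. Members were higher in each of these, with a ratio of 1.56 (1.34 to 1.83). Fos, an immediate early gene, was also called, at a ratio of 1.5 (1.24 to 1.84). Depth-matched, Klf2 (1.37) and Fos (1.40) missed the fold. Id3 (2.04, 1.08 to 4.27) and Ccr7 (1.52, 1.01 to 2.38) passed the fold but not the same-direction rule, and Tcf7 (1.30, 0.87 to 2.0) passed neither. Among the 6 highest genes with at least 100 UMIs were Trbv12-1 (2.15), a T cell receptor beta chain segment, Rhob (2.01), Synrg (1.94), Ppp1r10 (1.81) and Ncstn (1.81). Granule and killing genes were called in neither direction, 0 of 22, with a median of 0.971, and Gzma had a ratio of 1.29 (1.23 to 1.34).

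**Figure D5:**
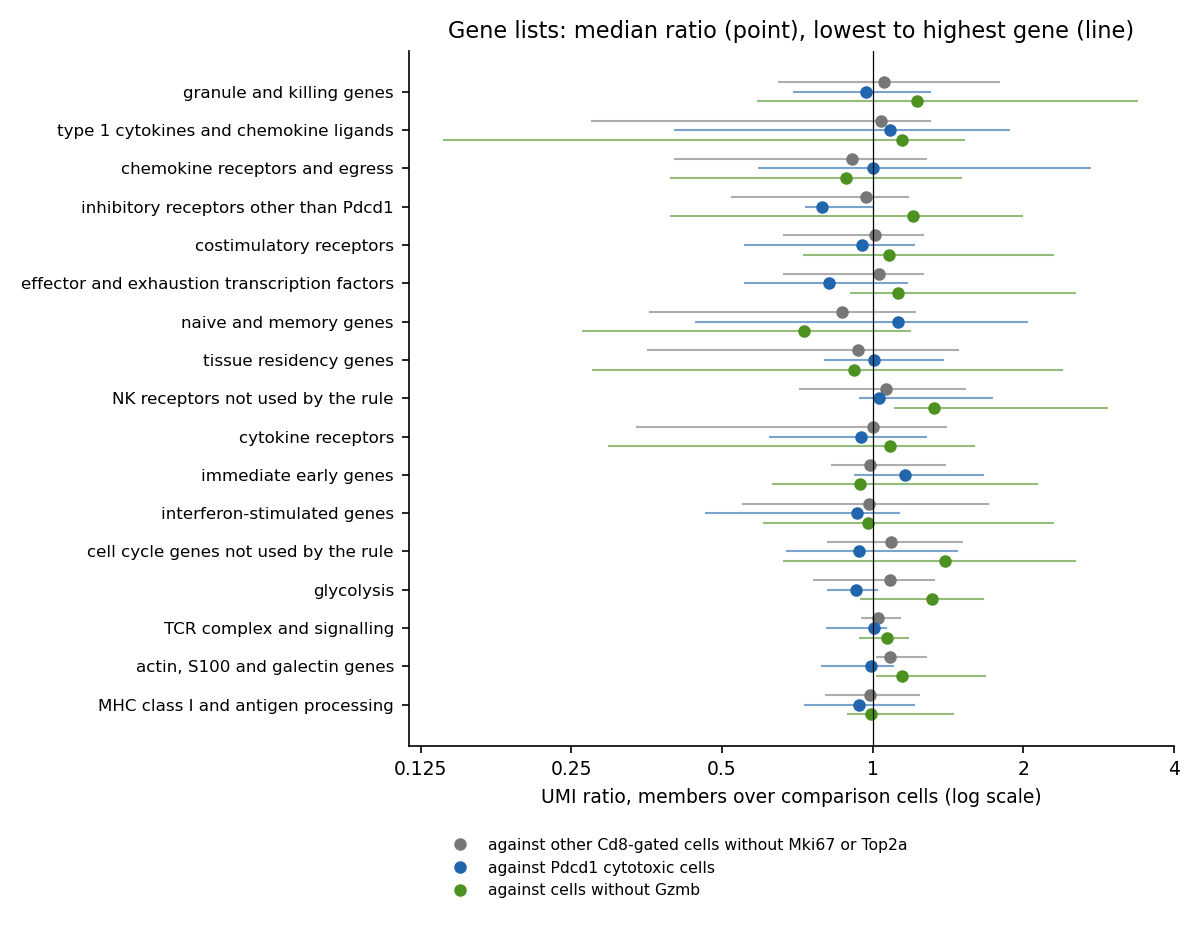
Ratio of UMIs in members over comparison cells (log axis) for 17 gene lists; the point is the list median and the line spans the lowest to the highest gene tested, against other Cd8-gated cells without Mki67 or Top2a UMIs (grey), Pdcd1+ cytotoxic cells (blue) and Gzmb- cells (green). The median of naive and memory genes was 0.728 against Gzmb- cells and 1.12 against Pdcd1+ cytotoxic cells.

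Members also differed among libraries beyond Gzma and Ccl5. Tox, which encodes a transcription factor of exhausted T cells, had 79.6, 162, 14.0, 15.5 and 17.1 CPM in members of libraries 1, 3, 4, 5 and 6, from 9 to 12 UMIs each. Havcr2 was at 0, 35.9, 105, 78.5 and 49.4 in the same order. The 0 in library 1 is imprecise, since 3 UMIs there would amount to 26.5 CPM. Ifng had 257, 449, 664, 681 and 485. Tox was thus higher in libraries 1 and 3 than in libraries 4 to 6, whereas Havcr2 and Ifng were lowest in library 1, and their values in library 3, from 2 and 25 UMIs, lay close to those of library 6. Because libraries were not tied to treatments, these differences have no group to be compared between.

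T cell receptor beta chain segments were read as a further property outside the rule. In library 3, Trbv19 was found in 18 of 29 members with any Trbv UMI, 62.1% (interval 42.3 to 79.3%). It was found in 15 of 18 Pdcd1+ cytotoxic cells and in 33 of 141 Gzmb- cells, 23.4% (16.7 to 31.3%), of that library. The leading segment in members was Trbv13-3 at 18.8% in library 1, Trbv3 at 20.7% in library 4, and Trbv13-2 at 19.0% and 14.8% in libraries 5 and 6.

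Markers of other cell types were also counted in members. All 6 melanoma markers and the hemoglobin gene measured were at 0. Of 5 B cell markers 4 were found, with 228 UMIs in 170 cells and 81.1 to 341 CPM by library, against 55.0 to 152 in the other Cd8-gated cells. Igkc gave 89 of these 228 UMIs, and 159 of 725 in the others. In library 3 Igkc alone stood at 251 CPM in members, and it was the only B cell marker called. Of 6 myeloid markers 4 were found, at 53.8 to 150.2 CPM against 55.6 to 160 in the others, with Csf1r and H2-Aa at 0. Of 3 stromal and endothelial markers 2 were found, at 0 to 22.4 CPM against 17.0 to 44.8, and gamma delta T cell genes gave 4 UMIs in 3 cells. The 8 CD4 lineage genes other than Cd4 and Foxp3 stood at 233 to 363 CPM in members and 84.1 to 460.4 in the others. The part of other cell types in the results above was not tested.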

How the data were processed

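The authors sorted TCRβ+ T cells from tumors, prepared 5′ droplet libraries, aligned reads to mm10 as their methods state, merged libraries with cell ranger aggr and filtered cells in Seurat; the submitters' processing notes name mm9. Replicate libraries were kept apart by a barcode suffix. The deposited values are UMI counts per gene and cell, not normalized. The members and gene lists were chosen with earlier results of these data known.

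Cells were gated by UMIs, and doublets were not removed here. Per gene, the UMIs of members were divided by those expected from the comparison cells of the same library, after 0.5 was added to both. Intervals are Clopper-Pearson for ratios and shares and exact Poisson for levels, at 95%. They treat UMIs or cells as independent and cover counting error only. Every ratio was formed within libraries. No test was made, because no label ties a library to a sample and the libraries were therefore not taken as replicates. Thinning drew 1000 UMIs per cell (seed 20). Named genes were the 10 (main comparison) or 6 highest and lowest called genes with at least 100 UMIs, gene models without a name left out, and, per list, the genes with most UMIs or the highest and lowest ratio; called list genes were all named where a list had few, a choice made after their values were seen. Some genes that met this rule are not reported here. Steps were checked on simulated data. Members held 505 to 9884 UMIs per cell and the other Cd8-gated cells 334 to 10231. Alternatives were weighting by cell, depth matching, other Gzmb and UMI minimums, thinning and leaving out each library. Python 3.11.15, numpy 2.4.6, scipy 1.17.1 and pandas 2.3.3 were used.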

Additional observations from a re-analysis of the deposited data

Results flagged for a closer look

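The immunoglobulin gene Igkc, which T cells do not express, gave 89 UMIs in 50 members, with up to 9 in a cell, above the level in the other Cd8-gated cells. The B cell markers Ighm and Cd79b gave 112 and 26 UMIs in members, Cd79a gave 1 and Ighd gave 0. Unlike Igkc, Ighm and Cd79b were called neither higher nor lower in members than in the other Cd8-gated cells. The source of these UMIs was not tested.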

How the results depend on the processing

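No paired analysis was possible because the table's columns carry none of the labels' replicate numbers and no result comes from a test; each ratio was formed within libraries. Counts of called genes depended on the UMI minimum and the Gzmb minimum. With at least 2 Gzmb UMIs per member, higher genes numbered 73 against other Cd8-gated cells, 104 against Pdcd1+ cytotoxic cells and 230 against Gzmb- cells, and lower genes 156 against Gzmb- cells. With at least 200 UMIs per gene, higher and lower genes numbered 8 and 93 against other Cd8-gated cells, 6 and 16 against Pdcd1+ cytotoxic cells, and 29 and 21 against Gzmb- cells, as fewer genes were tested. With at least 20 UMIs per gene, they numbered 199 and 308 against Pdcd1+ cytotoxic cells, and lower genes numbered 205 against Gzmb- cells. Leaving out each library in turn gave 26 to 74 higher and 304 to 490 lower genes against other Cd8-gated cells, 68 to 108 and 135 to 192 against Pdcd1+ cytotoxic cells, and 108 to 225 and 68 to 159 against Gzmb- cells. Counts moved by over 1.5 times without library 1 (58 higher and 490 lower), 3 (74), 4 (62), 5 (67) or 6 (59) against other Cd8-gated cells, without library 3 (106) or 5 (108) for higher genes against Pdcd1+ cytotoxic cells, and without library 3 (225 higher), 4 (209 higher, 159 lower) or 6 (148 lower) against Gzmb- cells; fewer libraries then had to share a direction. The share of members was 24% after thinning before gating, 13.9% with at least 2 Gzmb UMIs and 17.6 to 25.7% without each library. The share with a Prf1 UMI was 4.81% after thinning before gating and 8.08 to 8.87% without each library. The share with Lag3, Havcr2, Tigit or Ctla4 was 39.6% after thinning before gating, 61.7% with at least 2 Gzmb UMIs and 51.9 to 61.7% without each library. With comparison cells without Mki67 or Top2a UMIs, chosen after the data were seen, lower genes numbered 130 and the ratios of Hist1h2ab (1.71), Cenpe (1.55), Esco2 (1.55), Rrm2 (1.30), Ccnb1 (1.73), Ccnb2 (1.25), Ccna2 (1.30), Birc5 (1.45), Tubb5 (1.08), Tuba1b (1.09), Cenpf (1.09), Ube2c (1.51), Nusap1 (1.71) and Hist1h2ap (1.30) changed direction. Of 906 alternative values of 96 named ratios, 836 stayed within the interval, 56 moved and 14 reversed.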
